A study of Mus musculus with 147 samples.

Results

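The germ cells described here are wild-type mouse male germ cells taken at E14.5 and E15.5, the days on which they leave the mitotic cycle. They were chosen by the name of each cell in the deposited table of cells, which gives the time-point, the genotype (WT), the sorting gate (BVSC), the part of the gonad and the biological replicate. After the study's filter of more than 2000 genes and 10000 to 1000000 UMIs per cell, 379 of the 13032 cells of the series were members. UMIs are unique molecular identifiers, each of which counts 1 captured transcript. The members were 96 cells of replicate 1 and 96 of replicate 2 at E14.5, and 93 and 94 cells at E15.5. The cells of 1 time-point, gate and replicate are called a pool (E14.5 R1, E14.5 R2, E15.5 R1 and E15.5 R2).

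The embryos came from C57BL/6 females mated with homozygous BVSC males, whose transgenes place mVenus under *Blimp1* (*Prdm1*) and ECFP under *Stella* (*Dppa3*). No other allele or treatment separates the pools. Because the *Blimp1* reporter fades from E14.5 on, cells positive for Stella-ECFP alone were collected from that day. The gonads had been cut into a proximal, a central and a distal part relative to the mesonephros, and each pool holds 29 to 32 cells of each part. Cells without the reporters (gate Negative), 47, 48, 47 and 45 per pool, came from the same time-points and replicates and serve as background. Of these, 38 of 47, 46 of 48, 36 of 47 and 44 of 45 cells held fewer than 10 UMIs of *Ddx4* and *Dazl* together, so the other Negative cells held germ cell transcripts above that level. Every pool and gate at E14.5 and E15.5 was 1 library, so the pool and its library cannot be told apart. The p-values here measure the spread between 2 pools per time-point. Levels of neighbouring days are given below as description. Of these, E13.5 R1 came from 2 libraries, and cells of E12.5 and E13.5 were sorted before the change to Stella-ECFP alone. What these differences add to the levels was not tested.

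When they reach the gonad, primordial germ cells (PGCs) divide rapidly. In the male gonad they then stop dividing and rest in G0 or G1 as prospermatogonia until after birth, while in the ovary they enter meiosis. During the arrest the cells shut down the pluripotency genes they carried from the early embryo, and they prepare to methylate their genome again, guided in part by piRNAs, small RNAs that silence transposons. The comparison asks which transcripts change over the day in which most cells of this lineage stop.

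The sums of the 4 pools held 29563468, 32104931, 31293766 and 24168295 UMIs, with medians of 318474, 319078, 325602 and 259432 UMIs per cell. The gate was checked against markers. The 10 germ cell markers, led by the RNA-binding proteins *Ddx4* and *Dazl*, summed to 3486 to 4654 CPM (UMIs per 1000000 of the pool) in the 4 germ cell pools and to 69.3 to 354 CPM in the Negative pools, and none of them was at 0 in any germ cell pool. The 15 Sertoli cell markers summed to 67.4 to 140.0 CPM in germ cells against 468 to 3679 CPM in Negative cells. The 11 interstitial markers summed to 6.95 to 60.6 CPM against 2535 to 5321 CPM, and the 7 Leydig cell markers to 5.95 to 137 CPM against 8.54 to 1284 CPM. Endothelial markers summed to at most 20.3 CPM, leukocyte markers to at most 8.08 CPM and erythroid markers to at most 61.8 CPM in the germ cell pools, where 6, 6, 3 and 8 of the 9 leukocyte markers were at 0. The Negative pools held 22.5 to 157 CPM of the endothelial and 157 to 384 CPM of the erythroid markers. In E14.5 R1 the endothelial sums were close, at 20.3 CPM in germ and 22.5 CPM in Negative cells. Leukocyte markers summed to 0.126 to 3.08 CPM in Negative cells, below the germ cells in E14.5 R2 and E15.5 R1. The leukocyte list thus does not separate the gates. The 4 germ cell libraries were made with the same set of designed cell barcodes, and any pair of them shared 91 to 96. In E14.5 R1, 3 cells held fewer than 10 UMIs of *Ddx4* and *Dazl* together, and without them the number of changed genes was 1620, as with them.

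The 2 pools of E15.5 stood apart from each other. Over 17677 genes, log2(CPM + 1) of E15.5 R1 correlated with the 2 pools of E14.5 at r = 0.919 and 0.905 and with the 2 pools of E16.5 at 0.940 and 0.958. For E15.5 R2 the order was the other way, with r = 0.959 and 0.948 to E14.5 and 0.894 and 0.916 to E16.5. These correlations are across genes, which are not independent replicates. The 2 pools of E14.5 correlated at 0.978 and those of E15.5 at 0.961. Ribosomal protein genes took 5.50% of UMIs in E15.5 R1 and 6.70% to 6.78% in the other 3 pools, and mitochondrial transcripts 1.54% to 1.77% in all 4. The distal part of E15.5 R2 was the shallowest, with a median of 178550 UMIs per cell against 269588 to 347763 in the other parts of the 4 pools. The correlation between the E15.5 replicates was 0.938 in the proximal, 0.934 in the central and 0.913 in the distal part, against 0.958 to 0.960 at E14.5.

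Of 17677 genes tested, 1620 (9.16%) changed between E14.5 and E15.5 in edgeR's quasi-likelihood test at a Benjamini-Hochberg adjusted p under 0.05. Of these, 773 (4.37%) were higher and 847 (4.79%) were lower at E15.5, and 1392 differed by at least 2-fold. The median log2 fold change over all genes tested was 0.03. Fold changes below are E15.5 against E14.5 on the log2 scale with TMM scaling, which sets them 0.18 below those of plain CPM, and ± is the standard error of the fit. Counted in plain CPM, E15.5 R1 lay farther from E14.5 than E15.5 R2 did for 741 of the 773 higher genes (95.9%). The same held for 561 of the 847 lower genes (66.2%). The TMM factors of E15.5 R1 and R2 were 1.15 and 0.987, so plain CPM sets R1 higher against R2 than the TMM scale does. That raises the first share and lowers the second, and the shares on the TMM scale were not computed. Without E15.5 R1 1030 genes were called, of which 308 were higher, and without E15.5 R2 4284 were called, of which 1832 were higher.

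**Figure D1:**
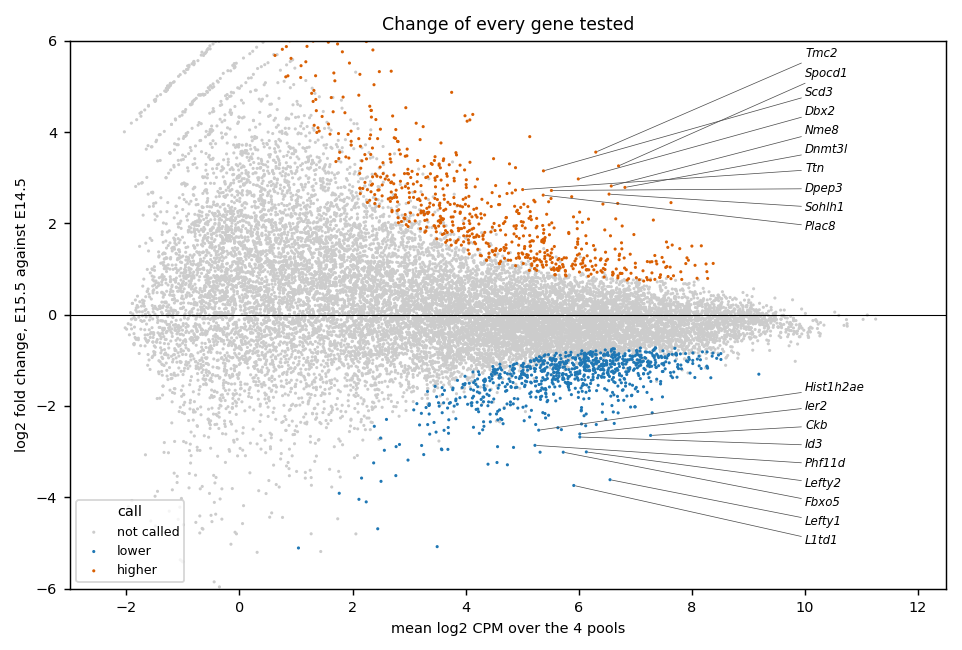
Log2 fold change of E15.5 against E14.5 (vertical axis) against the mean log2 CPM over the 4 pools (horizontal axis), 1 point per gene tested, with the 773 higher genes in orange, the 847 lower genes in blue and the 10 largest rises and 9 of the 10 largest falls among well-expressed genes named. The axis ends at 6, and 420 genes lie outside it.

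Promoter sequence is shown for 5 genes whose transcripts changed. The cell cycle genes are known targets of E2F proteins and of the DREAM and MuvB complexes, which bind the CHR element. CACGTG is a form of the E-box, and some basic helix-loop-helix proteins bind it. The E-boxes counted here are of this form alone. Each line gives the 250 bases before the RefSeq start of the gene on the gene's own strand, 5′ to 3′ (GRCm38.p6), with matches in capitals. *Mcm6*, of the replicative helicase, lies at chr1:128359706-128359955 on the minus strand and holds 3 matches to E2F letters, of which the first and second overlap on opposite strands. *Cdk1*, the mitotic kinase, lies at chr10:69352913-69353162 (minus) and holds 1 E2F match and 2 CHR matches. *Mki67*, a protein of dividing cells, lies at chr7:135716380-135716629 (minus) with 2 CHR matches. *Tdrd9*, an RNA helicase of the piRNA pathway, lies at chr12:111971309-111971558 (plus) with 2 E-boxes, and *Sohlh1*, itself a helix-loop-helix factor of spermatogonia, lies at chr2:25847249-25847498 (minus) with 3 E-boxes.
Mcm6: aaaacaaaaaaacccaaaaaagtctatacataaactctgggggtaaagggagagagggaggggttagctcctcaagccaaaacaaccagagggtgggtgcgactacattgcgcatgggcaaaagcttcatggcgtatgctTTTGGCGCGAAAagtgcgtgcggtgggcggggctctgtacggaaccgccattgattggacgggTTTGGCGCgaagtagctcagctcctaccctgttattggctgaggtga
Cdk1: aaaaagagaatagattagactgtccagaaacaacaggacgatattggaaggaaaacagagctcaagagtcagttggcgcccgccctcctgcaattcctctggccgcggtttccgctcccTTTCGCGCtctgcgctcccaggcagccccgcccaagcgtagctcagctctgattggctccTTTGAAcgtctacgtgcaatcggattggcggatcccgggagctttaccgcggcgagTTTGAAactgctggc
Mki67: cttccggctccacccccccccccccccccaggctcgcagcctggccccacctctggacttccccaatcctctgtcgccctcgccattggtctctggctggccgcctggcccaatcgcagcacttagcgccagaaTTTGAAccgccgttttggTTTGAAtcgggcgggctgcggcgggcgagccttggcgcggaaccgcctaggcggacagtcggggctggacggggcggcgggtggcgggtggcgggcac
Tdrd9: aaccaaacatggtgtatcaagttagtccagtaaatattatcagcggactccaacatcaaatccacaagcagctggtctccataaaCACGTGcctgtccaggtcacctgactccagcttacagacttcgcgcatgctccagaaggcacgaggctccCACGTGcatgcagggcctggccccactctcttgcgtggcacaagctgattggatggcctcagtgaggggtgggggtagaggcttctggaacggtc
Sohlh1: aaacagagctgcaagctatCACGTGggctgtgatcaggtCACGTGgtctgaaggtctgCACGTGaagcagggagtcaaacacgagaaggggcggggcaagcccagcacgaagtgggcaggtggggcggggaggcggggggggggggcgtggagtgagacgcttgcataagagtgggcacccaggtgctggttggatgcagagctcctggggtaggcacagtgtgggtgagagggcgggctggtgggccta

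The E2F letters searched were TTTCCCGC, TTTCGCGC, TTTGCCGC and TTTGGCGC, the CHR letters TTTGAA, and all on both strands of the window from 250 bases before to 50 after the start. E2F letters stood in 12 of 31 G1/S promoters and in 9 of 18 promoters of replication licensing genes, against 4.11% of the promoters of genes tested and 2.26% of all 32851 promoters. Among the G2/M promoters 3 of 46 held them, and among the piRNA pathway promoters 0 of 20. CHR letters stood in 32 of 46 G2/M promoters, against 15.4% of genes tested and 17.9% of all promoters. CACGTG stood in 8 of 20 piRNA pathway promoters, against 11.1% of genes tested and 7.15% of all promoters. It was not particular to that list, since it stood in 8 of 24 promoters of retinoic acid and meiosis genes and in 5 of 7 of germ cell markers, and in 2 of 23 of the prospermatogonia and spermatogonia list that holds *Sohlh1*. Among called genes it stood in 13.6% of promoters of those that rose and in 15.4% of those that fell. Such a match describes the letters of the window and is not a measured binding site.

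Every cell cycle gene of the phase lists that passed the test fell. Of the study's 43 G1/S genes, 21 fell and 0 rose, with a median log2 fold change of -0.85, and of the 53 genes named in its G2/M list, where 1 more entry names no gene, 24 fell and 0 rose, with a median of -0.84, against 4.79% of all genes tested that fell. The summed level of the G1/S genes was 6303 and 6205 CPM at E14.5 and 4083 and 4169.7 CPM at E15.5. That of the G2/M genes was 11038 and 11106 CPM at E14.5 and 7123 and 7799 CPM at E15.5. A pool's sum cannot tell fewer cells in cycle from less RNA per cell, and the values of single cells are given after the genes. The G1/S count of genes that fell was 11 without either E14.5 pool, 20 without E15.5 R1 and 30 without E15.5 R2. The G2/M count was 20 and 14 without E14.5 R1 and R2, and 26 and 34 without E15.5 R1 and R2. All these fits of 3 pools assume that the lone pool varies like the pair.

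Among the S phase genes, *Rrm2*, a subunit of the reductase that makes deoxyribonucleotides, had 61.5 and 57.6 CPM at E14.5 and 13.6 and 11.9 CPM at E15.5, and the days did not overlap (log2 fold change -2.41 ± 0.26, adjusted p = 0.00564). *Pcna*, the sliding clamp of DNA polymerases, had 287 and 286 CPM at E14.5 and 171 and 186 CPM at E15.5 (log2 fold change -0.85 ± 0.21, adjusted p = 0.0368). Both days were tight for *Pcna*, and the later one stood at 178 ± 10.9 CPM (SD, n = 2) against 286 ± 0.387 CPM. *Uhrf1*, which leads the maintenance methyltransferase to newly replicated DNA, had 55.0 and 67.1 CPM at E14.5 and 25.6 and 35.3 CPM at E15.5 (log2 fold change -1.16 ± 0.28, adjusted p = 0.0358). *Gmnn* encodes geminin, which blocks a second licensing of origins within 1 cycle, and it had 171 and 184 CPM at E14.5 and 60.4 and 56.9 CPM at E15.5 (log2 fold change -1.77 ± 0.20, adjusted p = 0.00598). *Tyms*, which makes thymidylate, fell by 1.88 on the log2 scale. Against 4.79% of all genes tested that fell, 8 of the 23 licensing genes fell and 0 rose, with a median of -0.73. Among them *Mcm2* and *Mcm6*, subunits of the helicase loaded on origins, fell by 1.29 and 0.86 on the log2 scale, the kinase subunit *Dbf4* fell by 1.11, and *Mcm5* of the same ring did not pass (log2 fold change -0.68 ± 0.20, adjusted p = 0.0592). The licensing factors *Cdc6* (-0.94 ± 0.41, adjusted p = 0.166) and *Cdt1* (-0.24 ± 0.21, adjusted p = 0.5) did not pass either. For *Cdt1* the pools overlapped, at 64.6 and 66.4 CPM against 68.4 and 57.0 CPM. The calls of *Pcna* and *Mcm6* were lost without either E14.5 pool (-0.80 and -0.82 without E14.5 R1, -0.88 and -0.87 without E14.5 R2), and that of *Uhrf1* without E14.5 R2 (-1.04) or E15.5 R1 (-0.86), with the fold changes in the same direction. The licensing count was 3 without either E14.5 pool, 5 without E15.5 R1 and 16 without E15.5 R2.

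Of the G2/M genes, *Mki67* had 112 and 139 CPM at E14.5 and 26.0 and 27.1 CPM at E15.5 (log2 fold change -2.41 ± 0.23, adjusted p = 0.00534), so that E15.5 stood at about the same low level in both pools. *Cdk1* had 228 and 233 CPM at E14.5 and 53.6 and 87.5 CPM at E15.5 (log2 fold change -1.86 ± 0.29, adjusted p = 0.0114), higher in E15.5 R2 than in E15.5 R1. *Top2a*, the topoisomerase that untangles sister chromatids, had 366 and 382 CPM at E14.5 and 184 and 188 CPM at E15.5 (log2 fold change -1.18 ± 0.21, adjusted p = 0.0148). *Cdc20*, which activates the anaphase-promoting complex, had 240.2 and 256 CPM at E14.5 and 213 and 162 CPM at E15.5 and did not pass (log2 fold change -0.59 ± 0.20, adjusted p = 0.0875). The mitotic kinase *Aurkb* fell by 1.96 on the log2 scale. *Fbxo5*, which is on neither phase list, encodes EMI1, an inhibitor of the anaphase-promoting complex. It was among the largest falls, with 84.2 and 92.6 CPM at E14.5 and 10.9 and 13.7 CPM at E15.5 (log2 fold change -3.01 ± 0.28, adjusted p = 0.00534). The levels of *Mki67* over the neighbouring days were 208 ± 17.1 CPM at E12.5, 163 ± 5.33 CPM at E13.5 and 14.8 ± 10.2 CPM at E16.5 (SD, n = 2 pools each). *Cdk1* stood at 332 ± 2.08, 301 ± 42.8 and 24.5 ± 7.85 CPM on the same days. E14.5 and E15.5 thus lay between these levels for both genes. The call of *Top2a* was lost without E14.5 R2 (-1.18, adjusted p = 0.0707), and *Cdc20* passed without E15.5 R1 (-0.68, adjusted p = 0.0192).

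Of 17 cyclins, cyclin-dependent kinases and their regulators, 7 fell and 0 rose, with a median of -0.89. Of all genes tested 4.79% fell. *Ccne1*, the cyclin of S phase entry, fell the most, from 40.8 and 37.3 CPM to 6.93 and 5.05 CPM (log2 fold change -2.89 ± 0.32, adjusted p = 0.00564). *Ccna2* fell from 161 and 203 CPM to 60.4 and 71.4 CPM (log2 fold change -1.63 ± 0.24, adjusted p = 0.00929). The mitotic cyclins *Ccnb1* and *Ccnb2* fell by 0.89 and 1.13 on the log2 scale, from 411 to 454 CPM and 371 to 422 CPM at E14.5 to 244 to 281 CPM and 181 to 224 CPM at E15.5. *Wee1*, the kinase that holds CDK1 inactive, fell from 52.6 and 79.9 CPM to 10.6 and 19.9 CPM (log2 fold change -2.26 ± 0.38, adjusted p = 0.0133). *Cdc25a*, the phosphatase that frees these kinases, fell by 1.43 on the log2 scale. Without E14.5 R2 the calls of *Cdc25a* (-1.14), *Ccnb1* (-0.84) and *Ccnb2* (-1.06) were lost, that of *Ccnb1* also without E14.5 R1 (-0.91), and the list's count was 4 without E14.5 R2 and 7 to 9 without each other pool.

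Inhibitors of the cycle were listed together with the Rb and E2F families. Of these 21 genes 0 rose and 5 fell (*E2f3*, *E2f5*, *E2f7*, *Tfdp1* and *Cdkn1a*), with a median of -0.33. Of all genes tested 4.37% rose and 4.79% fell, so the 0 that rose is near the share of all genes. The inhibitor *Cdkn1a* (p21) had 125 and 119.9 CPM at E14.5 and 62.7 and 73.3 CPM at E15.5 (log2 fold change -1.01 ± 0.23, adjusted p = 0.0274). *Cdkn1b* (p27) had 24.9 and 15.6 CPM at E14.5 and 8.92 and 12.8 CPM at E15.5 (log2 fold change -1.06 ± 0.42, adjusted p = 0.133), and *Cdkn1c* (p57) had 75.2 and 74.9 CPM at E14.5 and 60.4 and 49.2 CPM at E15.5 (log2 fold change -0.64 ± 0.21, adjusted p = 0.0849). Over the days, *Cdkn1b* stood at 3.72 ± 2.52 CPM at E12.5, 11.8 ± 5.92 at E13.5 and 17.1 ± 0.476 at E16.5, and *Cdkn1c* at 19.6 ± 11.1, 36.3 ± 17.8 and 83.7 ± 21.3 CPM (SD, n = 2). *Cdkn2b* (p15) had 16.47 and 16.51 CPM at E14.5 and 32.3 and 27.4 CPM at E15.5, higher in both pools of E15.5, and did not pass (log2 fold change 0.68 ± 0.30, adjusted p = 0.169). *E2f3*, an activating E2F, fell from 57.7 and 71.5 CPM to 18.4 and 21.0 CPM (log2 fold change -1.88 ± 0.27, adjusted p = 0.00913). The repressor *E2f8* had 7.07 and 7.69 CPM at E14.5 and 0.799 and 2.03 CPM at E15.5 and did not pass (log2 fold change -2.52 ± 0.76, adjusted p = 0.065). The call of *Cdkn1a* was lost without E14.5 R1 (-0.93, adjusted p = 0.0815) and without E14.5 R2 (-1.06, adjusted p = 0.0644). *Cdkn1b* (-1.47) and *E2f8* (-3.47) passed without E15.5 R2. The calls of *E2f5* (-1.05) and *E2f7* (-1.69) were lost without E14.5 R1, and 3, 4, 5 and 9 genes of the list fell without E14.5 R1, E14.5 R2, E15.5 R1 and E15.5 R2, with 1 that rose without E15.5 R2.

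**Figure D2:**
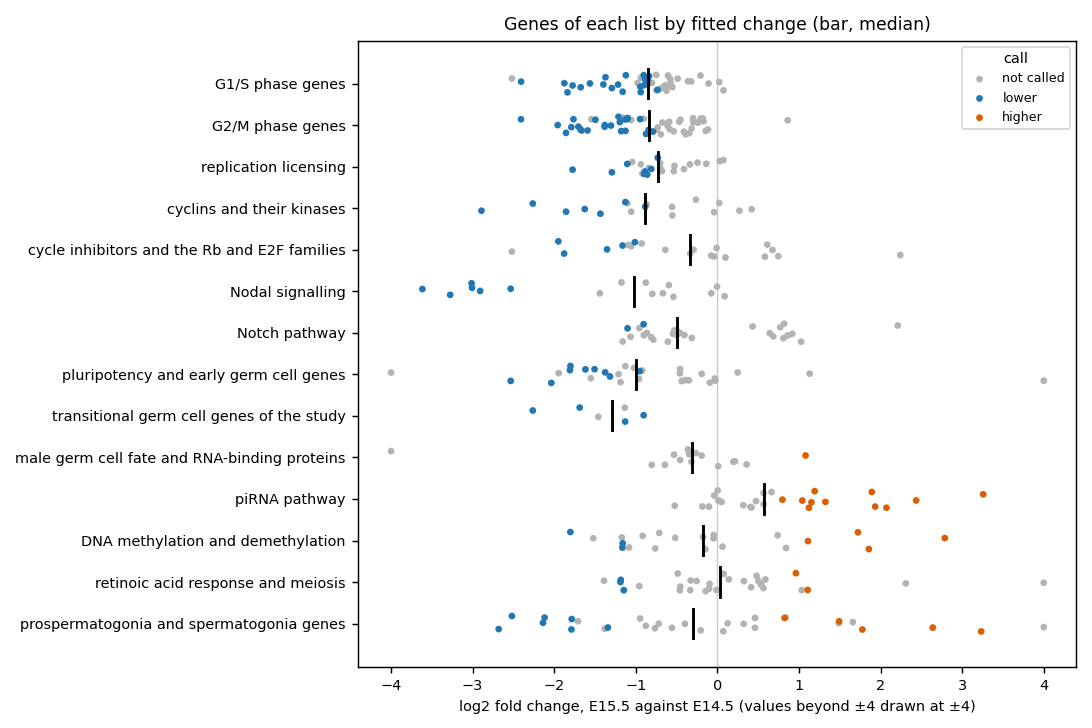
Log2 fold change of E15.5 against E14.5 (horizontal axis) of each tested gene of each list (rows), with genes called lower in blue, genes called higher in orange, uncalled genes in grey and a black bar at the median of each list. Values beyond 4 are drawn at 4. The cell cycle and Nodal lists hold called genes on the lower side alone, and the piRNA list on the higher side alone.

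Single cells show how the fall was spread over the pools. Each cell was thinned to 50000 UMIs, which left out 3 cells of each E14.5 pool, 2 of E15.5 R1 and 4 of E15.5 R2. The 96 G1/S and G2/M genes together then gave 475 to 1494 UMIs per cell in E14.5 R1 with a median of 786 and quartiles of 590 and 1097. In E14.5 R2 they gave 425 to 1301 UMIs with a median of 886 and quartiles of 573 and 1093. E15.5 R1 had 402 to 1099 UMIs with a median of 542 and quartiles of 504 and 576.5, and E15.5 R2 137 to 1232 UMIs with a median of 536.5 and quartiles of 504 and 605. The upper quartile of either E15.5 pool thus lay near the lower quartile of the E14.5 pools. The median over the cells of E14.5 was 848.5 UMIs, and 45 of 93 and 48 of 93 cells lay above it at E14.5, against 3 of 91 and 7 of 90 at E15.5. Still, 89 of the 91 and 87 of the 90 cells at E15.5 lay inside the range of E14.5. Few cells of either E14.5 pool lay near 848.5 UMIs, and most stood well below or well above it. Most cells of E15.5 lay at values like those of the lower E14.5 cells. Free RNA was not measured, and the sum of a cell holds it too.

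The fall was seen in every part of the gonad. At E15.5 the medians of the phase sum were 557, 547 and 530.5 UMIs in the proximal, central and distal part of R1 and 539, 550 and 513.5 in those of R2. At E14.5 they ran from 704 to 1058 in R1 and from 795.5 to 912 in R2, with the distal part lowest in both replicates. For *Mki67*, the proximal, central and distal parts held 94.0, 136 and 106 CPM in E14.5 R1 and 143, 131 and 143 CPM in E14.5 R2, against 26.9, 23.1 and 27.6 CPM in E15.5 R1 and 15.3, 42.3 and 20.7 CPM in E15.5 R2. Every part of E15.5 was lower than every part of E14.5 for this gene. Fitted alone, the proximal part gave 1226 changed genes and the central part 1483, and the distal part gave 0 in edgeR's test with 1886 at an unadjusted p under 0.05. The distal part is where the E15.5 replicates differed most and where E15.5 R2 was shallowest, and the share of each in this count was not tested.

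**Figure D3:**
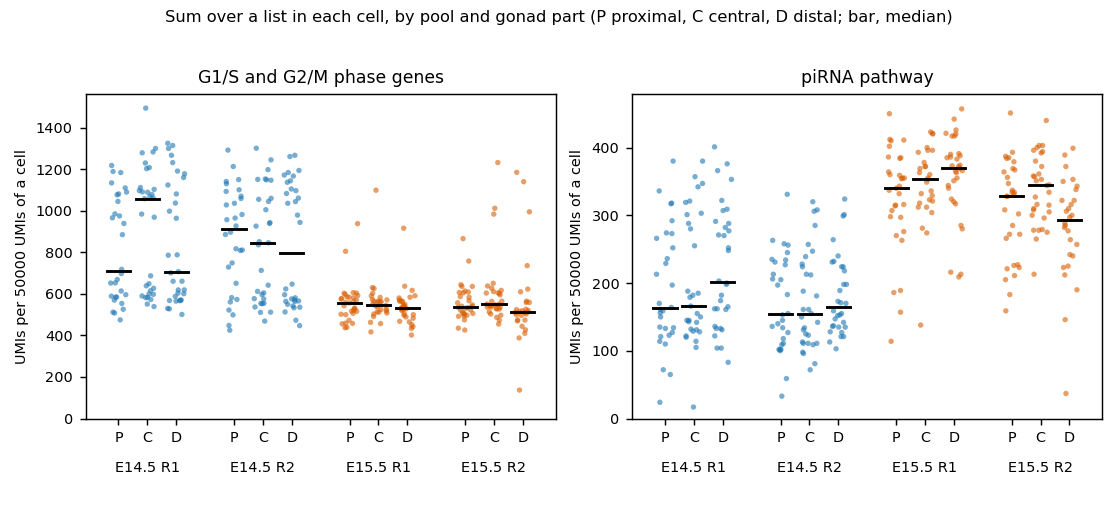
UMIs per 50000 UMIs of a cell (vertical axes) of the 96 G1/S and G2/M genes (left) and of the 27 piRNA pathway genes (right), 1 point per cell, by pool and by part of the gonad (P proximal, C central, D distal), with bars at the medians. On the left the medians of E15.5 lie between 513.5 and 557 and those of E14.5 between 704 and 1058, and on the right the E15.5 medians are the higher ones in every part.

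Of the genes of Nodal signalling 6 fell. Nodal is a ligand of the TGF-β family which signals through the co-receptor CRIPTO (*Tdgf1*) and SMAD2 and SMAD3, induces its own inhibitors *Lefty1* and *Lefty2*, and is known to hold male germ cells in a pluripotent state. Of 16 tested genes of the pathway 6 fell and 0 rose, with a median of -1.03, against 4.79% of all genes tested that fell, and among the 6 were *Nodal*, *Tdgf1*, *Lefty1*, *Lefty2* and *Otx2*. The count was 6 without each pool in turn. The ligand *Nodal* had 48.3 and 46.8 CPM at E14.5 and 6.39 and 7.82 CPM at E15.5 (log2 fold change -2.91 ± 0.32, adjusted p = 0.00564). *Tdgf1* had 23.7 and 15.3 CPM at E14.5 and 3.58 and 4.01 CPM at E15.5 (log2 fold change -2.53 ± 0.45, adjusted p = 0.0154). The inhibitor *Lefty1* had 162 and 164 CPM at E14.5 and 11.7 and 17.9 CPM at E15.5 (log2 fold change -3.62 ± 0.30, adjusted p = 0.00534), and its close copy *Lefty2* 118 and 117 CPM at E14.5 and 11.2 and 21.0 CPM at E15.5 (log2 fold change -3.01 ± 0.35, adjusted p = 0.00598), with reads that fit both genes possibly lost or split. *Otx2*, a homeobox gene of the epiblast, had 33.8 and 37.7 CPM at E14.5 and 2.84 and 5.34 CPM at E15.5 (log2 fold change -3.28 ± 0.43, adjusted p = 0.00792). No pool of one day overlapped the other for any of these 5 genes. The receptor genes *Acvr1b*, *Acvr2a* and *Acvr2b* and the SMAD genes of the list did not pass the test.

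On the days before, *Nodal* stood at 63.8 ± 14.8 CPM at E12.5 and 63.4 ± 10.3 CPM at E13.5, and at E16.5 at 1.89 ± 1.15 CPM (SD, n = 2). *Lefty1* stood at 230.1 ± 21.3, 306 ± 84.6 and 3.40 ± 1.66 CPM on these days. Of cells thinned to 50000 UMIs, 68.8% and 57.0% held a *Nodal* UMI at E14.5, with exact 95% binomial intervals of 58.4% to 78.0% and 46.3% to 67.2%, and 9.89% and 17.8% at E15.5 (4.62% to 17.9% and 10.5% to 27.3%). Of the Negative cells thinned alike, 0 of 42 to 44 per pool held one, which allows a share of up to 8.41%. *Lefty1* was held by 73.1% and 81.7% of cells at E14.5 and by 9.89% and 15.6% at E15.5, with 2 of 44 Negative cells of E15.5 R1 and 0 in the other Negative pools. Before thinning, the median depth was 259432 to 325602 UMIs in germ cells and 158206 to 246818 in Negative cells. These intervals cover counting error only.

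Of 30 genes of pluripotency and early germ cells, 9 fell and 0 rose, with a median of -0.99, against 4.79% of all genes tested that fell. *Nanog*, a core pluripotency factor, had 87.5 and 112 CPM at E14.5 and 18.6 and 35.3 CPM at E15.5 (log2 fold change -2.04 ± 0.35, adjusted p = 0.0138), lowest in E15.5 R1. *Sox2* had 56.8 and 100.4 CPM at E14.5 and 29.0 and 50.4 CPM at E15.5 and did not pass (log2 fold change -1.13 ± 0.36, adjusted p = 0.0774), with no overlap of the days. The POU factor *Pou5f1* (OCT4) had 195 and 207 CPM at E14.5 and 142 and 199 CPM at E15.5, with overlapping days (log2 fold change -0.39 ± 0.25, adjusted p = 0.343). *Mybl2*, a MYB factor of dividing cells, had 121 and 145 CPM at E14.5 and 43.7 and 69.8 CPM at E15.5 (log2 fold change -1.38 ± 0.29, adjusted p = 0.024). *Prdm1*, the repressor that specifies PGCs and drives 1 of the reporters, had 53.1 and 58.9 CPM at E14.5 and 35.2 and 30.3 CPM at E15.5 (log2 fold change -0.95 ± 0.23, adjusted p = 0.0361). *Dppa3* drives the reporter used for the gate, so its level is partly set by the sort, and it had 1167 and 1144 CPM at E14.5 and 714 and 1151 CPM at E15.5 (log2 fold change -0.46 ± 0.30, adjusted p = 0.361). The other members that fell were *Tdgf1* and, named for their call, *Esrrb* (-1.81), *Klf2* (-1.80), *Klf5* (-1.62), *Gdf3* (-1.51) and *Dppa2* (-1.32). Without E15.5 R2 18 members fell and 1 rose, among them *Sox2* (-1.70), *Pou5f1* (-0.77) and *Dppa3* (-0.97), and without each other pool 9 to 12 fell. *Sox2* also passed without E14.5 R1 (-1.43). The call of *Prdm1* was lost without E14.5 R1 (-0.98), E14.5 R2 (-0.90) or E15.5 R1 (-0.95), that of *Klf2* without E14.5 R1 (-1.51) and that of *Esrrb* without E14.5 R2 (-1.49).

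The share of thinned cells with a *Nanog* UMI was 82.8% and 87.1% at E14.5 and 30.8% and 64.4% at E15.5, with intervals of 21.5% to 41.3% and 53.7% to 74.3% at E15.5 that do not overlap. Among Negative cells 2.27% to 9.09% held one. The 2 pools of E15.5 thus differed from each other beyond counting error in this early gene. For *Mki67* they did not, with 66.7% and 75.3% at E14.5 and 26.4% and 27.8% at E15.5. In Negative cells 66.7% to 90.9% held *Mki67*, so Negative cells are no background for this gene, and the germ cell shares at E15.5 lay below theirs.

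Genes that the study had picked as marks of transitional PGCs, the cells between the dividing and the arrested ones, were lower at E15.5. The study chose this list on these samples, so it is not independent evidence of a direction. Against 4.79% of all genes tested that fell, 4 of its 6 genes fell and 0 rose, with a median of -1.30. They were *Wee1*, the bHLH factor *Ascl2* (-1.13 ± 0.28, adjusted p = 0.0383), the zinc finger factor *Sp5* (-1.69 ± 0.30, adjusted p = 0.015) and the Notch target *Hes1*. The homeobox genes *Hesx1* and *Tgif1* differed between the E15.5 pools. *Hesx1* had 227 and 231 CPM at E14.5 and 45.5 and 136 CPM at E15.5 (log2 fold change -1.46 ± 0.45, adjusted p = 0.0669), and *Tgif1* had 179.6 and 203 CPM at E14.5 and 65.7 and 126 CPM at E15.5 (log2 fold change -1.14 ± 0.33, adjusted p = 0.0582). In both genes E15.5 R2 lay nearer to E14.5. Of thinned cells, 91.4% and 96.8% held *Hesx1* at E14.5, 50.5% did in E15.5 R1 and 93.3% in E15.5 R2, with 0 to 11.9% in Negative cells. Before E14.5 the levels were rising, with *Hesx1* at 30.0 ± 11.6 CPM at E12.5 and 147 ± 54.6 CPM at E13.5, and 27.5 ± 1.59 CPM at E16.5 (SD, n = 2). *Hesx1* passed without any 1 of the 4 pools (from -2.60 without E15.5 R2 to -0.82 without E15.5 R1) and *Tgif1* without E14.5 R1 (-1.17), E15.5 R1 (-0.67) or E15.5 R2 (-1.81). The call of *Ascl2* was lost without E14.5 R1 (-1.02), E14.5 R2 (-1.22) or E15.5 R1 (-1.20), and the list's count was 3 to 6.

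Notch receptors are cut upon binding a ligand on a neighbouring cell, and the released domain turns on HES and HEY repressors. Of 27 tested genes of the pathway 2 fell and 0 rose, with a median of -0.50, beside 4.79% of all genes tested that fell. The 2 were *Hes1*, which had 165 and 166 CPM at E14.5 and 92.1 and 107 CPM at E15.5 (log2 fold change -0.90 ± 0.22, adjusted p = 0.0338), and *Hes6*, which had 77.2 and 76.7 CPM at E14.5 and 43.0 and 38.2 CPM at E15.5 (log2 fold change -1.10 ± 0.22, adjusted p = 0.0199). *Hes1* had stood at 32.6 ± 11.6 CPM at E12.5 and 98.5 ± 38.9 CPM at E13.5, and at E16.5 it stood at 66.2 ± 0.751 CPM (SD, n = 2), so that E14.5 was the highest of the 5 days. The receptor *Notch1* had 1.93 and 6.29 CPM at E14.5 and 11.8 and 5.42 CPM at E15.5 (log2 fold change 0.86 ± 0.70, adjusted p = 0.463), with overlapping days at a low level. The call of *Hes1* was lost without E14.5 R1 (-0.86) or R2 (-0.93) and that of *Hes6* without E14.5 R1 (-1.05), and 7 genes of the list fell and 1 rose without E15.5 R2.

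**Figure D4:**
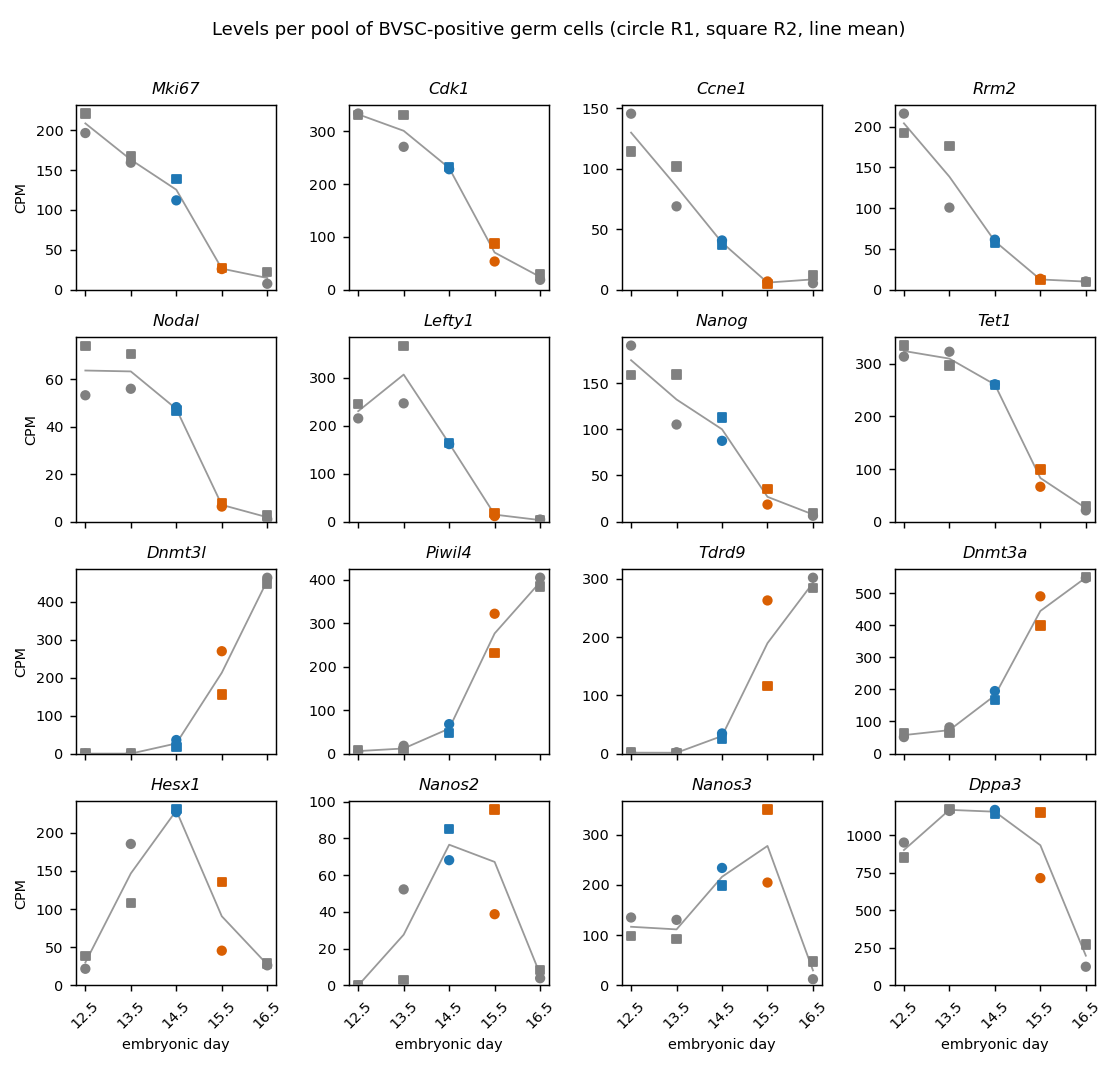
Level in CPM (vertical axes, from 0, a scale of its own for each gene) at E12.5 to E16.5 (horizontal axes), with a circle for R1, a square for R2 and a line through the means, and with E14.5 in blue and E15.5 in orange. The means of *Mki67*, *Nanog* and *Tet1* go down from day to day, those of *Piwil4* and *Dnmt3a* go up, and that of *Hesx1* is highest at E14.5.

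The next list holds RNA-binding proteins and other genes that mark the male germ line. Of 15 genes 1 rose, *Tex101* (1.08 ± 0.22, adjusted p = 0.0214), a surface protein of germ cells, and 0 fell, with a median of -0.32, a share near the 4.37% of all genes tested that rose. *Nanos2*, the translational repressor that sets the male fate, had 68.2 and 85.0 CPM at E14.5 and 38.8 and 95.7 CPM at E15.5 (log2 fold change -0.32 ± 0.40, adjusted p = 0.662), so the E15.5 pools lay on either side of E14.5. It had been at 0 in both pools of E12.5, and stood at 27.6 ± 34.9 CPM at E13.5 and 6.12 ± 3.07 CPM at E16.5 (SD, n = 2). Its UMIs were held by 65.6% and 74.2% of thinned cells at E14.5, by 50.5% in E15.5 R1 (interval 39.9% to 61.2%) and by 91.1% in E15.5 R2 (83.2% to 96.1%), against 0 to 2.27% of Negative cells. *Nanos3* had 234 and 199 CPM at E14.5 and 205 and 351 CPM at E15.5 (log2 fold change 0.21 ± 0.30, adjusted p = 0.7). *Dazl* had 731 and 688 CPM at E14.5 and 529 and 703 CPM at E15.5 (log2 fold change -0.36 ± 0.26, adjusted p = 0.398), and the helicase *Ddx4* had 490.0 and 417 CPM at E14.5 and 470.3 and 553 CPM at E15.5 (log2 fold change 0.01 ± 0.24, adjusted p = 0.987). All 4 genes overlapped between the days. Without E15.5 R2 *Nanos2* (-1.25) and *Dazl* (-0.70) passed as lower and 7 genes of the list fell, while without E15.5 R1 *Nanos3* (0.63) passed as higher. The call of *Tex101* was lost without E14.5 R2 (0.88).

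Of the piRNA pathway 11 genes rose. Its PIWI proteins bind piRNAs, which are made and amplified with Tudor domain proteins and helicases, and the nuclear PIWI protein MIWI2 (*Piwil4*) with SPOCD1 directs methylation to transposons in the fetal testis. Of 26 tested genes these 11 rose, 0 fell and 15 did not pass, with a median of 0.57, against 4.37% of all genes tested that rose. The summed level of the list was 4183 and 3502 CPM at E14.5 and 6746 and 6153 CPM at E15.5, and 230.4 to 750.4 CPM in Negative cells. *Piwil4* had 67.8 and 47.3 CPM at E14.5 and 322 and 231 CPM at E15.5 (log2 fold change 2.07 ± 0.25, adjusted p = 0.00656). *Piwil2* (MILI), its cytoplasmic partner, had 101 and 110.2 CPM at E14.5 and 319.9 and 217 CPM at E15.5 (log2 fold change 1.15 ± 0.21, adjusted p = 0.016). *Spocd1* had 26.8 and 10.1 CPM at E14.5 and 274 and 136 CPM at E15.5 (log2 fold change 3.26 ± 0.45, adjusted p = 0.00836), the largest rise of the list. The helicase *Tdrd9* had 34.6 and 25.8 CPM at E14.5 and 263 and 116 CPM at E15.5 (log2 fold change 2.44 ± 0.33, adjusted p = 0.00826). *Tdrd1*, a Tudor scaffold, had 73.1 and 55.7 CPM at E14.5 and 212 and 156 CPM at E15.5 (log2 fold change 1.32 ± 0.23, adjusted p = 0.0136). The days did not overlap for any of these, and for all 5 E15.5 R1 was the higher pool of its day.

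The other members that rose were the helicase *Mov10l1* (0.80 ± 0.21), *Gtsf1* (1.12 ± 0.24), the methyltransferase of piRNA ends *Henmt1* (1.93 ± 0.37), the ATPase *Morc1* (1.04 ± 0.22) and, named for their call, *Tex15* (1.19 ± 0.22) and *Piwil1* (1.89 ± 0.37). *Gtsf1* was highest in E15.5 R2, at 504 CPM against 457 CPM in E15.5 R1 and 166 to 227 CPM at E14.5. *Mael* had 450.0 and 376 CPM at E14.5 and 655 and 719.8 CPM at E15.5 and did not pass (log2 fold change 0.57 ± 0.23, adjusted p = 0.144), and *Tdrd5* had 248 and 231 CPM at E14.5 and 237 and 316 CPM at E15.5 with overlapping days (log2 fold change 0.05 ± 0.24, adjusted p = 0.926). Of the list 9, 5, 13 and 12 genes rose without E14.5 R1, E14.5 R2, E15.5 R1 and E15.5 R2, and 1 fell without E15.5 R2. Without E14.5 R2 the calls of *Piwil2* (1.19), *Tdrd1* (1.11), *Mov10l1* (0.63), *Gtsf1* (0.89), *Morc1* (0.82) and *Tex15* (1.02) were lost, and without E14.5 R1 those of *Piwil2* (1.14) and *Mov10l1* (1.01). Without E15.5 R1, *Mael* passed (0.73, adjusted p = 0.00815).

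In single cells the sum over the 27 genes, per 50000 UMIs, had medians of 179 and 155 at E14.5 and 355 and 316 at E15.5. Of the cells at E15.5, 88 of 91 and 87 of 90 lay above 165.5, the median over the cells of E14.5, as did 50 of 93 and 43 of 93 of those at E14.5. *Piwil4* was held by 66.7% and 63.4% of thinned cells at E14.5 and by every cell of E15.5 R1 and 96.7% of E15.5 R2, with 2.27% to 23.8% of Negative cells. *Tdrd9* was held by 46.2% and 30.1% at E14.5 and by 98.9% and 87.8% at E15.5, with 0 to 11.9% of Negative cells. Background was therefore lower than the germ cells' shares on both days. From E12.5 to E13.5 *Piwil4* stood at 5.82 ± 1.47 and 11.8 ± 8.81 CPM, and at E16.5 at 394 ± 14.48 CPM (SD, n = 2).

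The enzymes of DNA methylation moved in both directions. The de novo methyltransferase DNMT3A and its cofactor DNMT3L write new methylation, whereas DNMT1 with UHRF1 copies it at replication and TET1 oxidizes it. Of 21 genes 4 rose and 3 fell, with a median of -0.18, against 4.37% of all genes tested that rose and 4.79% that fell. *Dnmt3l* had 35.7 and 17.8 CPM at E14.5 and 269 and 156 CPM at E15.5 (log2 fold change 2.79 ± 0.35, adjusted p = 0.00742), and it had been at 0 at E12.5 and E13.5 and stood at 455 ± 10.4 CPM at E16.5 (SD, n = 2). *Dnmt3a* had 195 and 167 CPM at E14.5 and 489.7 and 399 CPM at E15.5 (log2 fold change 1.11 ± 0.21, adjusted p = 0.0165). *Dnmt3b* had 9.54 and 9.34 CPM at E14.5 and 22.5 and 16.1 CPM at E15.5 and did not pass (log2 fold change 0.84 ± 0.38, adjusted p = 0.174). *Dnmt1* had 170.4 and 170.5 CPM at E14.5 and 101 and 72.8 CPM at E15.5 (log2 fold change -1.16 ± 0.20, adjusted p = 0.0148), lowest in E15.5 R2, and *Uhrf1* fell as given above. *Tet1* had 261 and 259.9 CPM at E14.5 and 66.4 and 99.7 CPM at E15.5 (log2 fold change -1.80 ± 0.27, adjusted p = 0.0106), and stood at 324 ± 15.2, 309.9 ± 18.5 and 25.8 ± 6.07 CPM at E12.5, E13.5 and E16.5. The other members that rose, named for their call, were the dioxygenase *Tet3* (1.72 ± 0.40) and the histone demethylase *Kdm1b* (1.86 ± 0.34). The call of *Dnmt3a* was lost without E14.5 R1 (1.28, adjusted p = 0.0521) or E14.5 R2 (0.98, adjusted p = 0.255) and that of *Tet3* without E15.5 R1 (1.29). The number of members that rose was 3 or 4 and of those that fell 2 to 6 without each pool.

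*Dnmt3l* was held by 41.9% and 26.9% of thinned cells at E14.5 and by 93.4% and 86.7% at E15.5, with 0 to 16.7% of Negative cells. Within the proximal, central and distal parts it stood at 252, 283 and 277 CPM in E15.5 R1 and at 177, 182 and 86.1 CPM in E15.5 R2, so the replicates differed in every part and most in the distal one. At E14.5 the parts ranged from 7.64 to 49.1 CPM. Early and late genes were found in the same cells. UMIs of both *Nanog* and *Dnmt3l* were held by 33.3% and 21.5% of thinned cells at E14.5 and by 26.4% and 55.6% at E15.5. In E15.5 R1 61 of 91 cells held *Dnmt3l* without *Nanog* and 4 held *Nanog* without *Dnmt3l*, and in E15.5 R2 these were 28 and 8 of 90 cells. Both *Mki67* and *Dnmt3l* were held by 21.5% and 15.1% at E14.5 and by 23.1% and 22.2% at E15.5. Free RNA that carries either transcript adds to such counts, and its part was not tested. High shares of a gene alone also force many cells to hold both, as with *Dnmt3l* at 93.4% and 86.7% of cells at E15.5. Shares expected for independent genes were not computed, so these counts do not show a link between the genes.

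**Figure D5:**
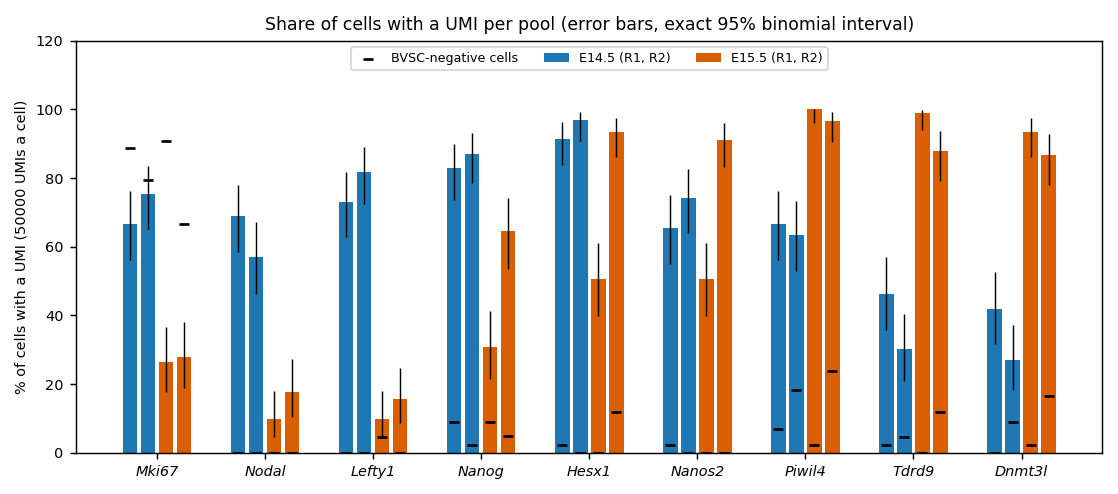
Percent of cells with at least 1 UMI of the gene after thinning to 50000 UMIs (vertical axis), by gene (horizontal axis) and pool (bars for R1 and R2 of E14.5 in blue and of E15.5 in orange), with exact 95% binomial intervals as error bars and black marks for the Negative cells. Shares of *Mki67*, *Nodal* and *Lefty1* drop at E15.5 and those of *Piwil4*, *Tdrd9* and *Dnmt3l* rise in both pools, while *Hesx1*, *Nanos2* and *Nanog* differ between the E15.5 pools.

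Genes of retinoic acid response and meiosis, the path taken in the ovary, did not move together. Of 30 genes 2 rose (*Sycp2*, 0.96, and *Crabp1*, 1.11) and 3 fell (*Hormad2*, -1.19, *Rxrb*, -1.18, and *Syce2*, -1.15), with a median of 0.03, close to that of all genes, against 4.37% of all genes tested that rose and 4.79% that fell. These shares were near those of all genes. *Sycp2*, *Syce2* and *Hormad2* encode proteins of meiotic chromosome axes and synapsis, and *Crabp1* binds retinoic acid. Each of these 5 calls was lost without at least 1 pool, *Sycp2* without E14.5 R1 (0.93) or R2 (1.02), *Crabp1* without E14.5 R2 (1.04) or E15.5 R1 (0.87), *Hormad2* without E14.5 R1 (-1.06) or E15.5 R1 (-0.92), *Rxrb* without E14.5 R2 (-0.89) or E15.5 R1 (-1.04) and *Syce2* without E14.5 R2 (-1.18). Of the list 0 to 3 genes rose and 1 to 5 fell without each pool in turn.

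Genes known from prospermatogonia and spermatogonia went both ways. Of 30 tested genes 5 rose and 7 fell, with a median of -0.30, against 4.37% of all genes tested that rose and 4.79% that fell. *Sohlh1* had 34.0 and 14.1 CPM at E14.5 and 232 and 115 CPM at E15.5 (log2 fold change 2.64 ± 0.42, adjusted p = 0.0114), while its partner *Sohlh2* had 80.4 and 84.9 CPM at E14.5 and 12.6 and 19.5 CPM at E15.5 (log2 fold change -2.52 ± 0.31, adjusted p = 0.00742). The members of this pair of bHLH factors thus moved in opposite directions, without overlap of the days in either. On the neighbouring days *Sohlh1* stood at 0 and 0.457 ± 0.329 CPM at E12.5 and E13.5 and at 316 ± 35.9 CPM at E16.5, and *Sohlh2* at 104 ± 8.75, 112 ± 20.9 and 10.0 ± 2.12 CPM (SD, n = 2). The surface protein *Tspan8* had 26.0 and 22.1 CPM at E14.5 and 118 and 71.2 CPM at E15.5 (log2 fold change 1.78 ± 0.26, adjusted p = 0.00989). *Etv5*, an ETS factor that answers growth factor signals, had 125 and 151 CPM at E14.5 and 28.2 and 59.9 CPM at E15.5 (log2 fold change -1.79 ± 0.37, adjusted p = 0.0215), and *Id3*, an inhibitor of bHLH factors, had 99.99 and 111 CPM at E14.5 and 16.8 and 20.1 CPM at E15.5 (log2 fold change -2.68 ± 0.25, adjusted p = 0.00534). The others, named for their call, were *Egr4* (0.82), *Zxdc* (1.49) and *Bcl6b* (3.23), which rose, and *Lhx1* (-2.14), *Etv4* (-2.12), *Id1* (-1.79) and *Epcam* (-1.34), which fell. *Bcl6b* had 1.18 and 0.810 CPM at E14.5 and 17.1 and 5.01 CPM at E15.5. The calls of *Bcl6b* (2.25) and *Zxdc* (0.74) were lost without E15.5 R1, those of *Zxdc* (1.25), *Egr4* (0.73) and *Id1* (-1.35) without E14.5 R2, and that of *Egr4* also without E14.5 R1 (0.95) or E15.5 R2 (0.65). Of the list 3 to 6 genes rose and 7 to 9 fell without each pool in turn.

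The 10 largest rises among well-expressed genes (mean log2 CPM of at least 5, no overlap of the days) included *Spocd1*, *Dnmt3l* and *Sohlh1*. The largest was *Tmc2*, a mechanotransduction channel of hair cells, with 15.3 and 7.82 CPM at E14.5 and 243 and 76.8 CPM at E15.5 (log2 fold change 3.56 ± 0.49, adjusted p = 0.00826). The desaturase *Scd3* rose by 3.15 ± 0.67 on the log2 scale, the homeobox gene *Dbx2* by 2.97 ± 0.33, the thioredoxin domain gene *Nme8* of sperm flagella by 2.82 ± 0.49, the sarcomere giant *Ttn* by 2.74 ± 0.39, the testis peptidase *Dpep3* by 2.72 ± 0.44 and *Plac8* by 2.62 ± 0.30. For all 10 E15.5 R1 was higher than E15.5 R2, as with 243 and 76.8 CPM of *Tmc2*, and the level at E16.5 was higher still, from 159 ± 2.41 CPM for *Scd3* to 455 ± 10.4 CPM for *Dnmt3l* (SD, n = 2). *Scd3* lost its call without E15.5 R1 (2.30, adjusted p = 0.0592).

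The 10 largest falls by the same rule included *Lefty1*, *Lefty2*, *Fbxo5* and *Id3*. The largest was *L1td1*, an RNA-binding protein of pluripotent cells derived from a LINE-1 element, with 119.9 and 90.0 CPM at E14.5 and 6.01 and 11.4 CPM at E15.5 (log2 fold change -3.74 ± 0.38, adjusted p = 0.00564). *Ckb*, the brain-type creatine kinase, had 234 and 266 CPM at E14.5 and 34.8 and 54.0 CPM at E15.5 (log2 fold change -2.65 ± 0.29, adjusted p = 0.00564), and the early response gene *Ier2* had 99.8 and 109.5 CPM at E14.5 and 24.1 and 15.1 CPM at E15.5 (log2 fold change -2.61 ± 0.25, adjusted p = 0.00534). The PHD finger gene *Phf11d* fell by 2.86 on the log2 scale and the H2A histone gene *Hist1h2ae* by 2.53. Both belong to families of near-identical copies whose reads could not always be told apart, so their values are uncertain. The mean of E14.5 was below that of E12.5 for all 10, with *L1td1* at 291 ± 6.29 CPM and *Ckb* at 509 ± 15.8 CPM at E12.5 (SD, n = 2).

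To see which changes the germ cells did not share with the cells around them, the change in the BVSC pools was set against that in the Negative pools of the same gonads. Of 18168 genes tested, 0 (0%) passed in edgeR's quasi-likelihood test of the difference, with 1306 at an unadjusted p under 0.05. DESeq2 was not run for this difference. The values can therefore be set side by side only, and a count of 0 does not show that the Negative cells shared these changes. *Mki67* stood at 221, 422, 419 and 175 CPM in the Negative pools E14.5 R1, E14.5 R2, E15.5 R1 and E15.5 R2, where the days overlapped, and the fitted difference of the log2 fold changes was -2.06 ± 0.49 (adjusted p = 0.428). *Cdk1* stood at 442, 434, 496 and 258 CPM there (difference -1.46 ± 0.50, adjusted p = 0.545). *Id3* stood at 419.8, 408, 357 and 466 CPM in Negative cells (difference -2.50 ± 0.31, adjusted p = 0.111). The Negative pools varied widely within a day, with Sertoli markers at 3679 and 468 CPM at E14.5. Their germ cell markers summed to 69.3 and 122 CPM at E14.5 and to 354 and 73.9 CPM at E15.5. The part of this variation in the result was not tested. Without E14.5 R1 the count was 410, without E14.5 R2 81, without E15.5 R1 0 and without E15.5 R2 39.

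Among the markers of other cell types, *Amh*, the Sertoli hormone that regresses the Müllerian duct, fell in the germ cell pools from 4.23 and 12.4 CPM to 0.767 and 0.331 CPM (log2 fold change -4.10 ± 0.85, adjusted p = 0.0225). *Defb19* (-2.18 ± 0.40) of the Sertoli list and *Cldn5* (-1.98 ± 0.51) of the endothelial list fell too. Of 7 Leydig, 10 interstitial, 2 leukocyte and 5 erythroid markers tested 0 changed. Of all genes tested 9.16% changed, so 0 among so few markers is near that share. The calls of *Amh* (-3.17) and *Cldn5* (-1.86) were lost without E14.5 R2, and that of *Cldn5* also without E15.5 R1 (-1.54), while 4 Leydig, 2 erythroid and 1 interstitial markers rose without E14.5 R1. Without E14.5 R2 1 Sertoli marker rose, and without E15.5 R2 1 Sertoli and 1 interstitial marker rose and 1 Leydig marker fell. The summed Sertoli markers were 107, 140.0, 139 and 67.4 CPM in the 4 germ cell pools, where 0, 0, 0 and 1 of the 15 markers were at 0. Their part in other results was not tested. Of the germ cell markers *Piwil2*, *Tdrd1* and *Mov10l1* rose, as given with the piRNA pathway.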

How the data were processed

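Single male germ cells and BVSC-negative cells of the same gonads were picked one by one after sorting, so no doublet caller was run, and were sequenced by a modified STRT-seq that reads the 3′ end of transcripts with UMIs. The authors deposited whole-number UMI counts per gene and cell, made per the labels' processing notes with CASAVA 1.8, UMI-tools, STAR, Subread and featureCounts on mm10. Close copies of a gene and overlapping genes may share or lose reads, and the strand setting is not given in the sources used here. The labels name only the library of each sample, so time-point, genotype, gate, part and replicate were read from the cell names.

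Counts were summed per pool (24168295 to 32104931 UMIs). Genes were kept by filterByExpr, scaled by TMM and tested with the quasi-likelihood test of edgeR 4.0.16 (R 4.3.3), 2 pools against 2, with Benjamini-Hochberg adjustment, and the germ cell change was set against that of the Negative cells as an interaction with the pool as a block. The standard error was the fold change divided by the root of the F statistic. CPM are plain counts per 1000000 UMIs. Shares and sums per cell used cells thinned to 50000 UMIs. Intervals and limits cover counting error only. DESeq2 1.42.0, other filters and pools left out in turn were the alternatives.

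The members and gene lists were chosen with earlier results of these data known. Genes named were the key genes of the lists and the 10 largest rises and falls among called genes whose pools did not overlap between days and whose mean log2 CPM reached 5, leaving out Gm and Rik names, which removed 1 rise. Other members of a list were named for their call, after their values were seen. The values of 1 gene are not reported here. Promoter sequences are those of RefSeq (GRCm38.p6), matched by symbol for 12953 of the 17677 genes tested.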

Additional observations from a re-analysis of the deposited data

How the results depend on the processing

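Of the 107 named genes called between E14.5 and E15.5, all 107 kept their direction under every alternative that could fit them. These genes had been called on the same pools, and the largest rises and falls were chosen without overlap of the days. A kept direction was thus largely set by that choice and is no independent support. The 1620 changed genes became 3152 with no filter on low counts, 3409 with DESeq2, 3301 with a replicate block and 0 in the distal part alone (edgeR, with 1886 genes at an unadjusted p under 0.05). Leaving out 1 pool in turn gave 1030 to 4284 genes, with the lone pool of a day assumed to vary like the other day. DESeq2's size factors gave 1683, all pools from E12.5 to E16.5 in 1 fit 1605, cells thinned to 10000 UMIs before summing 1191, no filter on cells 1636, the proximal part 1226 and the central part 1483. Genes called higher made up 47.7% of calls with TMM and 51.0% with DESeq2's size factors, and 29.9% to 63.2% without 1 pool. The deviations of same-numbered pools correlated at r = 0.026 over 6047 genes and 2 pairs. Since the E15.5 pools also differed from each other as given above, this cannot show whether same-numbered pools share a preparation. The replicate block lost 1 named call. Of the named calls 19 were lost with all pools in 1 fit, 17 of 101 with thinned cells, 25 in the proximal, 22 in the central and 106 of 106 in the distal part, and 1 to 33 without 1 pool. For the difference from Negative cells, the 0 genes called by edgeR (1306 at an unadjusted p under 0.05) became 57 with no filter on low counts and 0 to 410 without 1 pool.

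Among the named genes directions reversed only in those that were not called. The log2 fold change of Cdt1 was 0.20 with thinned cells and 0.12 in the central part alone, and the log2 fold change of Ddx4 was -0.0021 with the replicate block. Without 1 pool, the log2 fold change of Tdrd5 ran from -0.29 to 0.33, the log2 fold change of Nanos2 from -1.25 to 0.25, the log2 fold change of Nanos3 from -0.36 to 0.63 and the log2 fold change of Ddx4 from -0.23 to 0.22. The cause was not tested. Thinning to 20000 UMIs moved 13 of 18 shares of cells by more than the spread between pools, as fewer UMIs leave fewer cells with one.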

Other observations

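Of 19 genes of glycolysis and glucose uptake 2 rose and 4 fell, with a median log2 fold change of -0.13, against 9.16% of all genes called in either direction. The glucose transporters moved in opposite directions, since *Slc2a1* had 94.3 and 107 CPM at E14.5 and 45.1 and 51.7 CPM at E15.5 (log2 fold change -1.22 ± 0.23, adjusted p = 0.0168) and *Slc2a3* had 30.2 and 32.9 CPM at E14.5 and 79.5 and 66.0 CPM at E15.5 (log2 fold change 1.02 ± 0.23, adjusted p = 0.0274). *Hk2*, the kinase that traps glucose in the cell, fell by 1.27 on the log2 scale, *Tpi1* by 1.88 and *Pgk1* by 1.37, while the aldolase *Aldoc* rose by 1.40. The call of *Slc2a3* was lost without E14.5 R1 (1.01), E14.5 R2 (1.06) or E15.5 R1 (0.99), that of *Hk2* without E14.5 R1 (-1.06) and that of *Aldoc* without E14.5 R2 (1.304) or E15.5 R1 (1.08). Without each pool in turn 0 to 4 genes of the list rose and 3 to 7 fell.

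Of 26 imprinted genes 23 were tested. Of these, which are read from 1 parental copy in most tissues, 5 rose and 3 fell, with a median of 0.70, against 4.37% of all genes tested that rose and 4.79% that fell. *Snrpn* had 90.4 and 111 CPM at E14.5 and 14.1 and 36.9 CPM at E15.5 (log2 fold change -2.11 ± 0.43, adjusted p = 0.0215), and *Mest* and *Peg3* fell by 2.28 and 1.09 on the log2 scale. *Slc38a4*, an amino acid transporter, had 31.2 and 35.9 CPM at E14.5 and 118 and 88.5 CPM at E15.5 (log2 fold change 1.44 ± 0.22, adjusted p = 0.0114). *Grb10*, an adaptor that dampens growth factor signals, had 3.11 and 2.12 CPM at E14.5 and 49.9 and 10.1 CPM at E15.5 (log2 fold change 3.27 ± 0.65, adjusted p = 0.02), *Phlda2* and *Sgce* rose by 1.45 and 2.36 on the log2 scale, and *Rasgrf1* had 0.0338 and 0.125 CPM at E14.5 and 5.78 and 1.49 CPM at E15.5. All 5 genes that rose were higher in E15.5 R1 than in E15.5 R2. Without E15.5 R1 only 1 of the list rose, and the calls of *Grb10* (1.88), *Sgce* (1.81), *Phlda2* (1.29), *Rasgrf1* and *Peg3* (-0.73) were lost. The call of *Rasgrf1* was lost without E14.5 R1 too, and that of *Peg3* without E14.5 R2 (-0.87).

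Of 14 early response genes, which rise within minutes of handling as well as of growth signals, 3 fell and 0 rose, with a median of -0.75, against 4.79% of all genes tested that fell. They were *Ier2*, *Dusp1* (-1.20 ± 0.24, adjusted p = 0.0202 in edgeR's quasi-likelihood test) and *Junb* (-1.82 ± 0.48, adjusted p = 0.0443). The list summed to 619 and 626 CPM at E14.5 and to 458 and 364 CPM at E15.5, against 3709 to 5500.5 CPM in Negative cells. Their part in other results was not tested. The call of *Junb* was lost without E14.5 R2 (-1.59), and 3 to 6 genes of the list fell without each pool in turn.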
